A study of Homo sapiens with 9 samples.

Results

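The genes described here are 46 genes of the G1/S transition and of DNA replication, of 19775 genes named on the arrays. They were chosen by gene symbol, and each was read from its probe set with the highest mean over the 9 arrays, with the gene's other probe sets kept as a check. All 46 were measured. The samples were Jurkat cells, a human leukaemia line of T cell origin that is kept in culture, in 3 groups of 3 samples that the labels number as biological replicates. The nsEP cells received 100 electrical pulses of 10 ns at 150 kV/cm, so short that they reach structures inside the cell as well as its surface membrane. The heat-shocked cells sat in the same type of cuvette in a heated water bath as a stress control, and the sham cells were handled in the cuvette on the pulser with no power applied. All 3 groups were suspended at 1200 cells/µl, and RNA was taken 4 h after exposure in every group. The labels name no further agent, and all 9 samples come from this 1 line.

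A cell that commits to division passes from G1 into S phase when cyclin D and cyclin E kinases inactivate the retinoblastoma protein and so free E2F transcription factors, which switch on genes for DNA replication. Origins are licensed by loading the MCM helicase, the helicase is activated with CDC45 and GINS, and DNA polymerases then copy both strands, held on the DNA by the sliding clamp PCNA. Leukaemia lines such as Jurkat divide continuously and transcribe these genes in a large share of their cells. The arrays measured pooled cells, so that fewer cells in S phase and less RNA of a gene in each cell cannot be told apart. By the study's viability assay most of the pulsed cells were no longer viable when RNA was taken, and surviving and dying cells cannot be told apart either.

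Values are log2 signals as deposited, and a gene was called at an adjusted p under 0.05 in limma, adjusted over the 54613 probe sets tested. The trimmed mean signal was 500.1 on each of the 9 arrays, while the median log2 signal of all probe sets was 6.37 ± 0.11 in nsEP, 6.69 ± 0.03 in heat-shocked and 6.39 ± 0.06 in sham samples (SD, n = 3 each). The median gene was 0.14 higher on the log2 scale after heat shock than in sham, so that list medians are given on the measured scale and after the median of all genes was subtracted. A single array, nsEP replicate 3, stood apart, at -172.6 on the second principal component, where the other 8 lay between -30.6 and 62.6. Its 3′ control probe set exceeded the 5′ one by 0.56 for GAPDH and 1.24 for ACTB (log2). In nsEP replicates 1 and 2 these differences were -0.22 and -0.11 for GAPDH and 0.31 and 0.37 for ACTB. Sham replicate 1 had 0.26 and 1.26. The cause of the position of nsEP replicate 3 was not tested. The exposures were checked on 4 stress genes. FOS, an immediate early transcription factor, rose by 7.27 on the log2 scale after nsEP and by 9.20 after heat shock, EGR1, another one, by 4.94 after nsEP and 6.43 after heat shock, and the chaperone genes HSPA6 and DNAJB1 rose after heat shock by 8.77 and 3.14. All 14 markers of T cells had group means in the brightest quartile of probe sets in each group, and summed signals of these markers ran from 80297 to 110790 in nsEP, 76482 to 100452 in heat-shocked and 83189 to 88885 in sham samples.

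The 46 genes were abundant transcripts. In 45 of them the probe set lay in the brightest quartile of all probe sets, the exception being CCND2, which lay in the third. The median over the 46 genes was 11.81 ± 0.11 in nsEP, 11.86 ± 0.14 in heat-shocked and 11.96 ± 0.14 in sham samples (log2 signal, SD, n = 3 each), against a median over all genes of 7.40 ± 0.13 in nsEP, 7.62 ± 0.03 in heat-shocked and 7.42 ± 0.05 in sham samples. The medians over the 46 genes of the 3 groups thus lay within a range close to the spread between replicates. The genes are therefore also set beside the 7732 genes whose probe set lies in the brightest quartile.

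Promoters were examined because many replication genes are textbook targets of E2F, which binds sites of the form TTTCGCGC or TTTGGCGC, and of NF-Y, which binds CCAAT. The RefSeq table of promoters on GRCh38.p14, from 250 bases before to 50 bases after a transcription start, held 38 of the 46 genes in 50 windows. It did not list CCND2, CCNE2, CDK2, GINS4, MCM4, MCM5, RPA2 and RPA3. Either E2F form, on either strand, was found in a window of 12 of the 38 genes (31.6%), against 382 of 27305 genes in the table (1.40%). The 12 were CDC25A, CDC6, E2F1, E2F2, GINS1, MCM2, MCM3, MCM6, MCM7, POLA1, POLE and POLE2. CCAAT on either strand was found in 23 of the 38 (60.5%), against 39.7% of the genes in the table. A match is a description of the letters and shows no binding. The windows of 60 bases below are shown for the members that fell after heat shock and have a listed promoter, and for 3 members with E2F matches whose levels were not called in any comparison. They are written 5′ to 3′ on the strand of the gene, with matches in capitals. Those of PCNA, FEN1, E2F1 and CDC25A end at the last base before the start, that of POLE2 crosses the start, and those of E2F3 and MCM6 lie further upstream.
PCNA, chr20:5126623-5126682, minus strand: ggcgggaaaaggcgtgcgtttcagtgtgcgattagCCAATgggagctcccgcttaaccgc
FEN1, chr11:61792851-61792910, plus strand: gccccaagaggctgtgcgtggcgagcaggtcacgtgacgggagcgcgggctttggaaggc
E2F3, chr6:20401730-20401789, plus strand: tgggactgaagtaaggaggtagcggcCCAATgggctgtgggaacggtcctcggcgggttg
POLE2, chr14:49688212-49688271, minus strand: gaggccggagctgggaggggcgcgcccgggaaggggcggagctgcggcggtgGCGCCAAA
E2F1, chr20:33686386-33686445, minus strand: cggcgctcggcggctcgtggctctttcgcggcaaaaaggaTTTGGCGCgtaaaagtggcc
CDC25A, chr3:48188418-48188477, minus strand: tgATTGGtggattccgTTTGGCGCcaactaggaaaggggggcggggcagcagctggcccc
MCM6, chr2:135876544-135876603, minus strand: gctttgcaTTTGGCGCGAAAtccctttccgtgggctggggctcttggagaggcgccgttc
The capitals mark CCAAT in PCNA and E2F3, its reverse complement ATTGG in CDC25A, TTTGGCGC in E2F1 and CDC25A, and its reverse complement GCGCCAAA in POLE2. In MCM6 the capitals TTTGGCGCGAAA hold both E2F forms, 1 on each strand, overlapping. FEN1 held neither an E2F form nor CCAAT in its whole window, and PCNA and E2F3 held no E2F form.

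The comparison of nsEP with sham asks whether the genes of the G1/S transition and of replication differed in cells that had received the pulses. With limma 0 of the 46 genes were called in either direction. At an unadjusted p under 0.05 limma gave 1 higher and 1 lower, and the methods' t-test gave 3 at that level and 0 after Benjamini-Hochberg adjustment. Over all probe sets 32 of 54613 were called (0.0586%), and 0.103% of genes in the brightest quartile, so a count of 0 among 46 lies near that background. The median log2 ratio of the 46 genes was -0.06, against -0.02 over all genes, which is -0.04 relative to all genes. Of the 46 ratios 13 were positive and 33 negative, between -0.85 and 0.45. In the 7732 genes of the brightest quartile 3473 ratios were positive and 4259 negative. The 95% interval of the fit lay within 1 log2 unit of zero in 45 of the 46 genes, and the exception was CDT1.

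CDT1, which loads the MCM helicase onto origins in G1, had the smallest p. Its log2 signals were 12.03, 10.91 and 11.56 in nsEP and 12.11, 11.65 and 12.49 in heat-shocked samples, against 12.70, 12.48 and 11.86 in sham samples. The nsEP and sham samples overlapped, since nsEP replicate 1 lay above sham replicate 3. The ratio was -0.85 ± 0.29 (SE of the fit, 95% interval -1.49 to -0.21, n = 3 against 3, adjusted p = 0.567), and the second probe set of CDT1 gave -0.13. Leaving out 1 array moved the ratio between -1.11 without nsEP replicate 1 and -0.55 without nsEP replicate 2, and none of these fits called it. TK1, the thymidine kinase that salvages thymidine for DNA synthesis, had 9.29, 9.24 and 9.57 in nsEP, 9.40, 9.67 and 9.73 in heat-shocked and 8.92, 8.72 and 9.13 in sham samples. All 3 nsEP samples lay above the 3 sham samples, at a ratio of 0.45 ± 0.18 (adjusted p = 0.642). Its second probe set gave 0.21.

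E2F3, an activating E2F, had 11.39, 11.40 and 11.62 in nsEP against 11.92, 11.66 and 11.82 in sham samples, a ratio of -0.33 ± 0.16 (adjusted p = 0.741). POLE, the catalytic subunit of the leading strand polymerase epsilon, had 9.17, 9.56 and 9.53 in nsEP against 9.96, 9.69 and 9.76 in sham samples, a ratio of -0.39 ± 0.19 (adjusted p = 0.743). In both genes the nsEP samples lay below all sham samples without passing the test. Groups that did not overlap were found for 6 genes in the lower direction, E2F3, MCM4, GINS1, GINS3, POLA1 and POLE, or 13% of the 46, against 5.41% of all genes. In the higher direction TK1 was the 1 such gene, against 4.56% of all genes.

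Outside CDT1, LIG1 and TK1, the ratios after nsEP lay between -0.39 for POLE and 0.11 for TYMS. PCNA had 13.76, 13.74 and 14.21 in nsEP and 13.81, 13.73 and 14.19 in sham samples, a ratio that rounds to zero with a 95% interval of -0.42 to 0.41. The groups of PCNA therefore overlapped almost fully. The 6 subunits of the MCM helicase had ratios between -0.24 and 0.03, the 6 genes of helicase activation (CDC45, GINS1 to GINS4 and MCM10) between -0.28 and 0.10, and the 4 polymerase genes between -0.39 and -0.10. The clamp and the 5 subunits of its loader RFC had ratios between -0.12 and 0.10, and the 3 subunits of RPA, which coats single-stranded DNA, between -0.04 and 0.10. The regulators of G1 and its exit, which are the cyclins D and E with CDK2 and CDC25A, had ratios between -0.18 and 0.09, and E2F1 and E2F2 had -0.07 and 0.02. Of the remaining genes, CDC6 had -0.02, RRM1, RRM2 and TYMS of nucleotide supply had -0.18, -0.08 and 0.11, and CHAF1A, CHAF1B, SLBP and UNG lay between -0.16 and -0.07. LIG1, the ligase that seals lagging strand fragments, had -0.45 ± 0.24 (adjusted p = 0.766). A miss of the threshold does not show that the groups were alike: the median SE of a ratio over the 46 genes was 0.18.

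**Figure D1:**
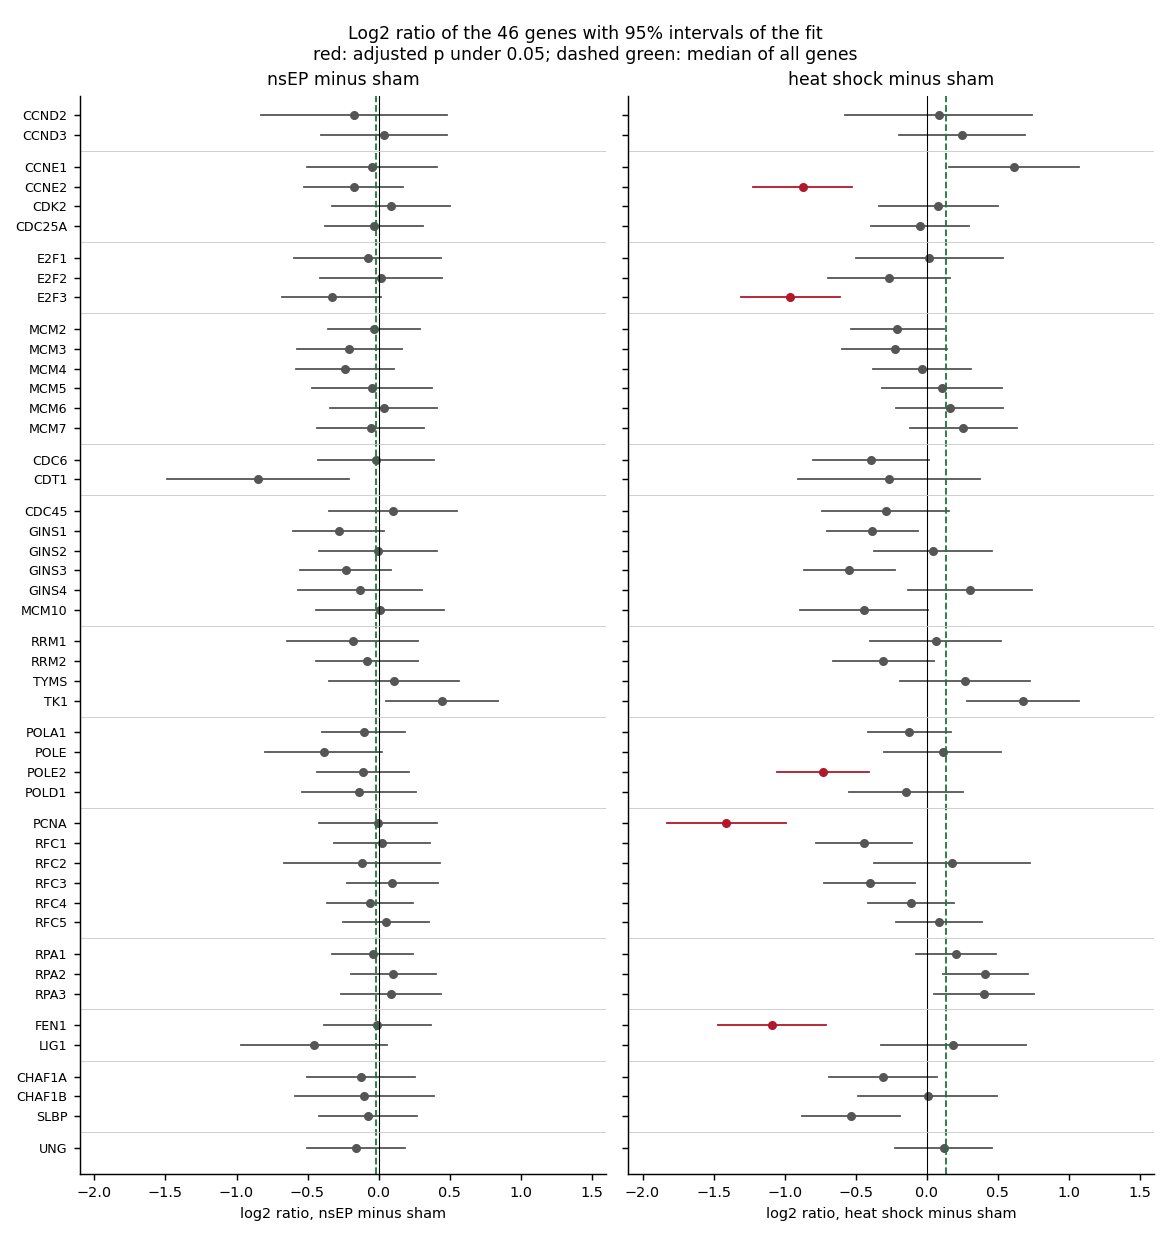
Log2 ratio of each of the 46 genes, nsEP minus sham on the left and heat shock minus sham on the right, with points for the fitted ratio and bars for its 95% interval, grouped by role. The dashed line is the median of all genes, and red marks the genes at an adjusted p under 0.05. On the left no gene is red and the points lie between -0.85 and 0.45, and on the right PCNA, FEN1, E2F3, CCNE2 and POLE2 are red.

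The comparison of heat shock with sham asks the same of the stress control. Of the 46 genes 5 fell and 0 rose, which were PCNA, FEN1, E2F3, CCNE2 and POLE2. They belong to different steps of the pathway. At an unadjusted p under 0.05 there were 4 higher and 10 lower. At that level 2108 of the 19775 genes were higher and 2234 lower. Of the 7732 genes of the brightest quartile 866 were higher and 1816 lower. The methods' t-test called 0 of the 46 after adjustment. The 5 are 10.9% of the 46, against a lower share of 2.36% over all probe sets, 3.99% over all genes and 9.08% over the 7732 genes of the brightest quartile. Higher calls were 1.72% of all genes. The lower share thus lay near that of other bright genes and is no result about the 46 genes as a group. Their median ratio was -0.04, against 0.14 over all genes and -0.05 over genes of the brightest quartile, which is -0.17 relative to all genes. The ratio lay below that of the median gene in 34 of the 46, and in 5122 of the 7732 genes of the brightest quartile. Its 95% interval lay within 1 log2 unit of zero in 39 of the 46.

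PCNA, the sliding clamp that holds DNA polymerases on the template, had the largest fall of the 46 genes. Its log2 signals were 12.64, 12.22 and 12.64 in heat-shocked samples against 13.81, 13.73 and 14.19 in sham samples. Each heat-shocked sample lay more than 1 log2 unit below each sham sample. The mean signal was 5793 after heat shock and 15386 in sham, a fall by 1.41 on the log2 scale (SE 0.19, 95% interval -1.83 to -0.99, adjusted p = 0.00124), or 2.66-fold lower. PCNA has 1 probe set on the array, so that no second probe set checks it. FEN1, the nuclease that trims the flap of an Okazaki fragment before ligation, had 12.17, 12.06 and 12.05 in heat-shocked and 13.24, 13.05 and 13.22 in nsEP samples, against 13.54, 12.84 and 13.16 in sham samples. The 3 heat-shocked samples of FEN1 lay close together and below every sham sample. FEN1 fell by 1.09 (SE 0.17, adjusted p = 0.00361), or 2.13-fold, and its second probe set also fell by 1.09 (adjusted p = 0.014). That second probe set had 10.53, 10.41 and 10.16 in heat-shocked samples, against 11.14, 11.54 and 11.69 in sham samples.

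E2F3 had 10.54, 11.02 and 10.98 in heat-shocked samples, below the sham values of 11.92, 11.66 and 11.82 given above. It fell by 0.96 (SE 0.16, adjusted p = 0.00503), or 1.94-fold, and its second probe set fell by 0.84 (adjusted p = 0.0177). The other activating E2F genes were not called. E2F1 had 9.50, 9.22 and 8.83 in heat-shocked and 8.67, 9.03 and 9.56 in nsEP samples, against 9.18, 9.20 and 9.11 in sham samples. The heat-shocked and nsEP samples of E2F1 lay on both sides of the narrow sham range, and the ratio after heat shock was 0.02 ± 0.24. E2F2 had a ratio of -0.27 ± 0.20 (adjusted p = 0.521).

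Among the regulators of the G1/S switch, the cyclin E genes had ratios of opposite sign, except under spike-in scaling, in which each array is scaled to the poly-A RNAs added during labelling. CCNE2, a cyclin that activates CDK2 at the start of S phase, had 10.65, 10.42 and 10.82 in heat-shocked and 11.49, 11.43 and 11.05 in nsEP samples, against 11.45, 11.54 and 11.51 in sham samples. It fell by 0.87 after heat shock (SE 0.16, adjusted p = 0.00881), or 1.83-fold, with no overlap between the heat-shocked and sham samples. Its second probe set did not pass, with a ratio of -0.40 ± 0.40 (adjusted p = 0.641). CCNE1, the other E-type cyclin, had 10.00, 9.45 and 9.66 in heat-shocked and 8.71, 9.0 and 9.41 in nsEP samples, against 9.02, 9.03 and 9.21 in sham samples. The heat-shocked samples lay above all sham samples, and the nsEP samples overlapped with them. The ratio of 0.61 ± 0.21 after heat shock did not pass (adjusted p = 0.139), and it was -0.43 under spike-in scaling. CDC25A, the phosphatase that activates CDK2, had 11.22, 11.10 and 11.20 in heat-shocked and 10.91, 11.30 and 11.34 in nsEP samples, against 11.42, 11.13 and 11.11 in sham samples. All groups of CDC25A overlapped, with a ratio of -0.04 ± 0.16 after heat shock. CDK2 itself had 0.08 ± 0.19, and the D-type cyclins CCND2 and CCND3, which bind CDK4 and CDK6 earlier in G1, had 0.08 ± 0.30 and 0.25 ± 0.20.

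POLE2, the second subunit of polymerase epsilon, had 10.99, 10.75 and 10.59 in heat-shocked and 11.53, 11.39 and 11.27 in nsEP samples, against 11.59, 11.40 and 11.53 in sham samples. It fell by 0.73 after heat shock (SE 0.15, adjusted p = 0.0166), or 1.66-fold, and has 1 probe set. The call on POLE2 ended without sham replicate 1 (adjusted p = 0.0698), sham replicate 3 (0.0603), heat shock replicate 2 (0.0599) or heat shock replicate 3 (0.0792). The other polymerase genes were not called, with 0.11 ± 0.19 for POLE, -0.12 ± 0.13 for POLA1 of the primase complex and -0.15 ± 0.19 for POLD1, the catalytic subunit of the lagging strand polymerase delta. For the other 4 genes that fell, no leave-out of 1 array ended the call.

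**Figure D2:**
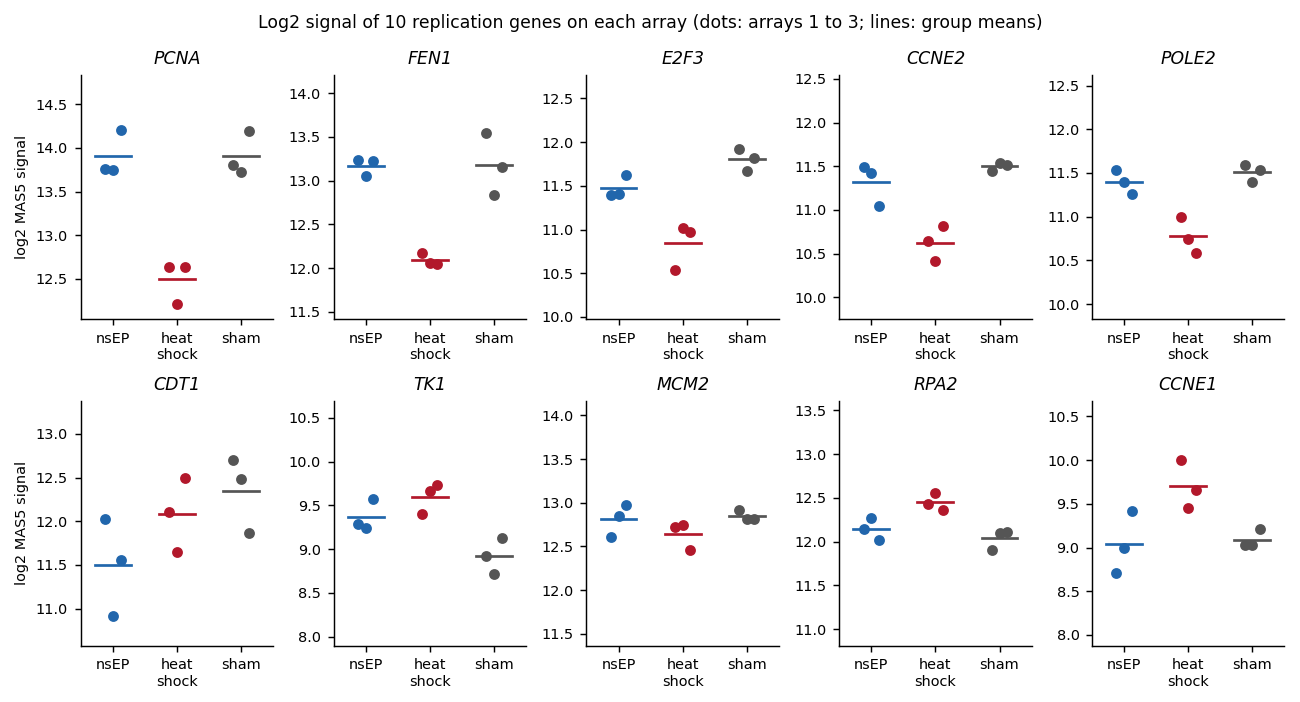
Log2 MAS5 signal on each array for the 5 genes that fell after heat shock (top row) and for CDT1, TK1, MCM2, RPA2 and CCNE1 (bottom row), as nsEP, heat shock and sham from left to right. Dots are arrays, lines are group means, and every panel spans the same number of log2 units around its own centre. In the top row the heat-shocked samples lie below all sham samples, for PCNA at 12.22 to 12.64 against 13.73 to 14.19.

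The helicase and its loaders were not called after heat shock. MCM2, a subunit of the helicase ring, had 12.72, 12.75 and 12.45 in heat-shocked and 12.60, 12.85 and 12.98 in nsEP samples, against 12.92, 12.81 and 12.81 in sham samples. The heat-shocked samples of MCM2 lay below sham by a small margin, at a ratio of -0.21 ± 0.15 (adjusted p = 0.512). The 6 MCM ring genes had ratios between -0.22 for MCM3 and 0.26 for MCM7. CDC6, which loads the ring together with CDT1, had 10.74, 10.28 and 10.88 in heat-shocked and 11.23, 11.08 and 10.70 in nsEP samples, against 10.95, 11.14 and 10.98 in sham samples. Its ratio was -0.39 ± 0.19 (adjusted p = 0.3), with no overlap between heat-shocked and sham samples, while its second probe set had 0.18. CDT1 had -0.26 ± 0.29 after heat shock, and its second probe set had 0.20.

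Among the genes of helicase activation, the calls on GINS3 and MCM10 depended on the probe set. GINS3, a subunit of the GINS complex, had 10.42, 10.12 and 10.47 in heat-shocked samples against 10.96, 10.95 and 10.73 in sham samples at its brightest probe set, a ratio of -0.54 ± 0.15 that did not pass (adjusted p = 0.0617). Its second probe set had 9.05, 8.95 and 8.89 in heat-shocked samples against 9.79, 10.10 and 9.98 in sham samples and fell by 0.99 (adjusted p = 0.00834). MCM10, which helps to activate the helicase, had -0.44 ± 0.21 at the brightest of its 3 probe sets (adjusted p = 0.292). A second one had 9.96, 10.01 and 10.13 in heat-shocked samples against 10.88, 11.17 and 11.78 in sham samples and fell by 1.24 (adjusted p = 0.0055), and the third had -0.20. The probe sets of MCM10 were thus called in 1 of 3. CDC45, GINS1, GINS2 and GINS4 had -0.29, -0.38, 0.04 and 0.30, none of them called. The other probe sets of GINS2 ran from -0.20 to 0.81 and those of GINS4 from -0.03 to 0.82, none of them called.

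Over all other probe sets of the 46 genes, 4 of 49 fell after heat shock and 0 rose. Of all probe sets 2.36% were called lower, and 9.08% of the genes in the brightest quartile, where not all of the 49 lie. The 4 were those of FEN1, E2F3, GINS3 and MCM10. These 49 belong to 30 genes, and the remaining 16 genes have 1 probe set each. After nsEP 0 of the 49 were called against sham.

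**Figure D3:**
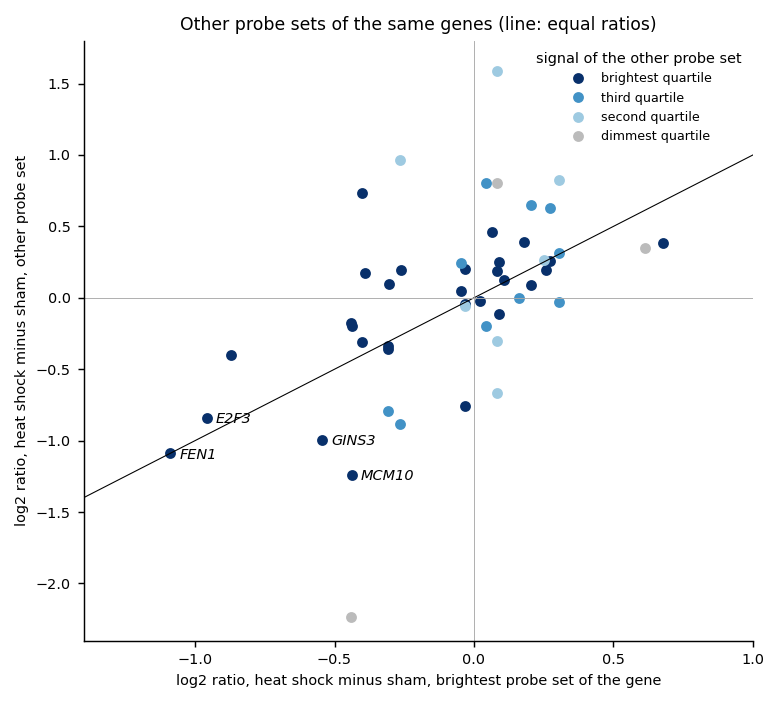
Log2 ratio of heat shock minus sham for the 49 other probe sets (vertical axis) against the brightest probe set of the same gene (horizontal axis), with 1 point per other probe set, shaded by its quartile of signal, and a line where both are equal. The labelled points are the 4 other probe sets that were called, and those of FEN1 and E2F3 lie near the line at -1.09 and -0.84, while those of GINS3 and MCM10 lie below it at -0.99 and -1.24.

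None of the 4 genes of nucleotide supply was called after heat shock in the data as deposited, and 2 of them, RRM2 and TK1, were called under other settings. RRM2, the small subunit of ribonucleotide reductase that is made in S phase, had 13.71, 13.64 and 13.70 in heat-shocked and 13.81, 13.74 and 14.16 in nsEP samples, against 14.17, 13.78 and 14.01 in sham samples. Its heat-shocked samples lay just below all sham samples, at a ratio of -0.30 ± 0.16 (adjusted p = 0.358). The second probe set of RRM2 had 0.10. RRM2 was called lower with arrays centred on their medians (adjusted p = 0.0419) and after quantile normalization (0.0174). TYMS, which makes thymidylate, had 15.04, 15.15 and 15.02 in heat-shocked and 14.72, 14.67 and 15.34 in nsEP samples, against 14.73, 14.56 and 15.11 in sham samples. All groups of TYMS overlapped, at a ratio of 0.27 ± 0.21 after heat shock. TK1 had 0.68 ± 0.18 (adjusted p = 0.0587), with every heat-shocked sample above every sham sample, and -0.37 under spike-in scaling. TK1 was called higher after quantile normalization (adjusted p = 0.0446), without dim probe sets (0.039), with array weights (0.0328) and without nsEP replicate 3 (0.0391). RRM1, the large subunit of ribonucleotide reductase, had 0.06 ± 0.21.

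The 3 subunits of RPA had ratios of 0.20 ± 0.13 for RPA1, 0.41 ± 0.14 for RPA2 and 0.40 ± 0.16 for RPA3, with all heat-shocked samples above all sham samples in each. For RPA2 these were 12.43, 12.55 and 12.36 in heat-shocked samples against 11.91, 12.10 and 12.11 in sham samples. None of the 3 passed (adjusted p = 0.444, 0.13 and 0.208). Under spike-in scaling they were -0.84, -0.63 and -0.64, and with arrays centred on their medians -0.10, 0.11 and 0.10, so that their sign depended on the scaling. Of the clamp loader, RFC1 had -0.44 ± 0.16 and RFC3 -0.40 ± 0.15, while RFC2, RFC4 and RFC5 had 0.18, -0.11 and 0.09, none of them called. Of chromatin assembly, CHAF1A and CHAF1B, subunits of the chaperone that places histones behind the fork, had -0.31 and 0.01. SLBP, which binds histone mRNA in S phase, had -0.53 ± 0.16 (adjusted p = 0.0884). UNG, which removes uracil from DNA, had 0.12, and LIG1 0.19.

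Groups did not overlap in the lower direction for 15 of the 46 genes after heat shock (32.6%), against 13.7% of all genes and 27.2% of the brightest quartile. In the higher direction they were 6 (13%), against 17.5% of all genes and 17% of the brightest quartile. The 6 were CCNE1, MCM7, TK1, RPA1, RPA2 and RPA3. The number of genes called depended on the scaling of the arrays, at 0 higher and 5 lower as deposited, 1 higher and 7 lower after quantile normalization, 0 and 12 with arrays centred on their medians and 0 and 10 under spike-in scaling. PCNA, FEN1, E2F3, CCNE2 and POLE2 were lower and called under all 4 of these scalings, whereas 23 of the 46 ratios did not keep 1 sign over them. The spike-ins themselves averaged 10.18 ± 0.68 in nsEP, 11.15 ± 0.36 in heat-shocked and 10.10 ± 0.52 in sham samples (log2 signal, SD, n = 3 each), and their part in the result was not tested.

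The promoter matches were set beside the ratios as a description. Of the 5 genes that fell after heat shock, 4 had a listed promoter, and POLE2 alone of these held an E2F form. The median ratio after heat shock was -0.16 in the 12 genes with an E2F form and -0.13 in the 26 without, and after nsEP it was -0.07 and -0.06. For CCAAT the median after heat shock was -0.04 in the 23 genes with it and -0.21 in the 15 without.

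The comparison of nsEP with heat shock sets the exposures side by side, and shares its arrays with the comparisons above. PCNA, FEN1, CCNE2, POLE2 and E2F3 were higher in nsEP than in heat-shocked cells, and 0 were lower. At an unadjusted p under 0.05 there were 8 higher and 5 lower. At that level 2001 of the 19775 genes were higher and 2128 lower. Of the 7732 genes of the brightest quartile 1613 were higher and 825 lower. The 5 called genes are 10.9% of the 46, against a higher share of 2.31% over all probe sets, 3.83% over all genes and 8.64% over genes of the brightest quartile, while 2.16% of all genes were called lower. The share lay near that of other bright genes here as well. PCNA was 1.40 ± 0.19 higher on the log2 scale (adjusted p = 0.00117), or 2.65-fold, and FEN1 1.08 ± 0.17 (0.0035), or 2.11-fold. CCNE2 was 0.70 ± 0.16 higher (adjusted p = 0.0267), POLE2 0.62 ± 0.15 (0.0342) and E2F3 0.63 ± 0.16 (0.0447). In all 5 genes each nsEP sample lay above each heat-shocked sample, as the values on each array given above show. The remaining genes had ratios between -0.66 for CCNE1 and 0.50 for RFC3. Of the 49 other probe sets 5 were higher in nsEP cells, those of E2F2, E2F3, MCM4, GINS3 and FEN1, and 1 of GINS2 was lower. Over all probe sets 2.31% were called higher and 2.65% lower.

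When 1 array was left out, 3 of these 5 calls ended in at least 1 fit. That of E2F3 ended in each of the 9 such fits (adjusted p = 0.0602 to 0.175). That of CCNE2 ended without nsEP replicate 1 or 2 and heat shock replicate 1 or 2 (0.0844 to 0.105), and that of POLE2 without sham replicate 1 or 3, nsEP replicate 1 or 2 and heat shock replicate 2 or 3 (0.0504 to 0.141). Without nsEP replicate 3, the array that stood apart, 6 genes were higher and 2 lower, CCNE1 (-0.85, adjusted p = 0.0274) and MCM7 (-0.51, adjusted p = 0.047). With all arrays CCNE1 had a ratio of -0.66 ± 0.21 (adjusted p = 0.0997), and every nsEP sample lay below every heat-shocked sample. The ratio of CCNE1 was -0.72 after quantile normalization, -0.34 with centred arrays and 0.31 under spike-in scaling. MCM7 had -0.31 as deposited, -0.25 after quantile normalization, 0.009 with centred arrays and 0.66 under spike-in scaling. The sign of both genes thus depended on the scaling. In this comparison 26 of the 46 ratios did not keep 1 sign over these scalings.

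The remaining genes of the G1/S and replication pathway were taken from a list of 75, of which 72 were analysed here. After nsEP 0 of the 72 were called against sham with limma, with 2 higher and 0 lower at an unadjusted p under 0.05. At that level 492 of the 19775 genes were higher and 575 lower. After heat shock 5 fell and 1 rose (6.94% and 1.39%, against 3.99% and 1.72% of all genes). In the brightest quartile it was 9.08% and 1.77%. The lower calls were 18 with arrays centred on their medians, 17 under spike-in scaling, 8 without dim probe sets or with array weights, 1 with the methods' t-test and 0 without the variance trend. They were 2 without sham replicate 1 or 2 or heat shock replicate 2, 3 without sham replicate 3, nsEP replicate 2 or heat shock replicate 1 or 3, and 8 without nsEP replicate 3. Lower calls over all probe sets also rose, from 1289 as deposited to 3857 with centred arrays and 4122 under spike-in scaling. CLSPN, which protects the fork and relays the replication checkpoint, had 8.66, 9.12 and 8.59 in heat-shocked and 9.74, 9.97 and 9.20 in nsEP samples, against 9.84, 10.08 and 9.97 in sham samples. It fell by 1.17 (SE 0.22, adjusted p = 0.00914). RBL1, a relative of the retinoblastoma protein that represses E2F genes, fell by 1.12 (SE 0.25, adjusted p = 0.0226), and E2F6, a repressive E2F, fell by 0.80 (SE 0.15, adjusted p = 0.00798). CDC7, the kinase that triggers origins, fell by 0.73 (adjusted p = 0.0362), and the fifth was DNA2. CDKN1C, an inhibitor of G1 cyclin kinases, rose by 1.22 (SE 0.28, adjusted p = 0.0299), with 7.96, 8.66 and 8.49 in heat-shocked and 7.13, 7.20 and 7.33 in nsEP samples, against 7.58, 6.99 and 6.88 in sham samples. The call on CDKN1C after heat shock, the 1 higher call of the list, ended with centred arrays, under spike-in scaling, without the variance trend, with the methods' t-test, and without sham replicate 2, heat shock replicate 2 or heat shock replicate 3. In nsEP against heat-shocked cells E2F6 (0.88), CLSPN (0.84) and DBF4, the activator of CDC7 (0.66), were higher and CDKN1C was lower (-1.15). That is 4.17% of the 72 higher and 1.39% lower, against 3.83% and 2.16% of all genes. In the brightest quartile it was 8.64% and 2.29%. These 3 higher calls and 1 lower call were 17 and 0 with centred arrays, 6 and 0 under spike-in scaling, 1 and 2 with just the 6 arrays compared, and 0 and 0 without the variance trend or with the methods' t-test. Leaving out 1 array gave 1 to 6 higher and 0 to 2 lower, with 1 higher and 0 lower without nsEP replicate 1 or 2, 1 and 1 without heat shock replicate 1, 2 and 0 without heat shock replicate 3, and 6 and 1 without nsEP replicate 3. Higher calls over all probe sets in this comparison were 1261 as deposited, 3819 with centred arrays and 2161 under spike-in scaling.

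Genes of the next phases of the cycle, G2 and M, were set beside them with a list of 30. After nsEP 0 of the 30 were called against sham with limma, with 0 at an unadjusted p under 0.05. At that level 492 of the 19775 genes were higher and 575 lower. After heat shock 2 fell and 0 rose, or 6.67% lower, against 3.99% of all genes and 9.08% of the brightest quartile. The count was 5 under spike-in scaling, 1 without the variance trend, 0 with the methods' t-test, and 1 without sham replicate 1 or 2 or any 1 heat shock replicate. Under spike-in scaling 4122 of all probe sets were called lower, against 1289 as deposited. TTK, a kinase of the spindle checkpoint, had 10.70, 10.06 and 10.41 in heat-shocked and 11.89, 11.38 and 11.78 in nsEP samples, against 12.04, 11.62 and 11.63 in sham samples. It fell by 1.37 (SE 0.20, adjusted p = 0.00195), close in size to PCNA. KIF11, the motor that separates spindle poles, fell by 0.86 (adjusted p = 0.0208). The median ratio after heat shock was -0.15 for these 30 genes, -0.06 for the 72 and -0.04 for the 46, and the differences between the lists were not tested.

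**Figure D4:**
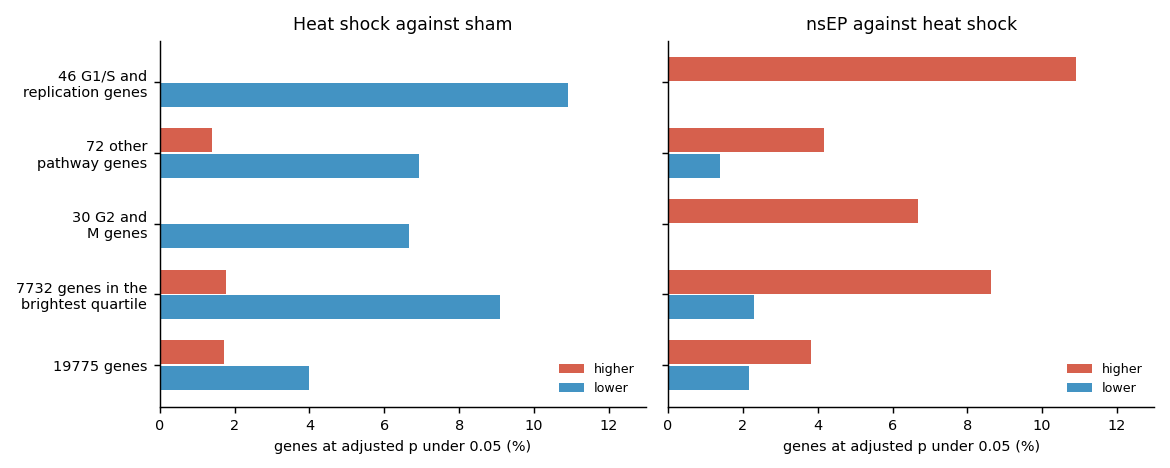
Percent of genes at an adjusted p under 0.05 in each list, for heat shock against sham on the left and nsEP against heat shock on the right, with red bars for genes that were higher and blue bars for genes that were lower. The 46 genes had 10.9% lower on the left, beside 9.08% of the genes in the brightest quartile and 3.99% of all genes.

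A few markers of cell types were called after heat shock. Of the 14 T cell markers CD2 fell by 1.79, TRAT1 by 2.16 and CD28 by 1.01 after heat shock, and 0 rose. That is 21.4% of the 14, against 3.99% of all genes and 9.08% of the brightest quartile called lower. The median ratio of the 14 was -0.09, against -0.05 over genes of the brightest quartile. Of 10 measured myeloid markers CD14 rose by 4.78 and the other 9 were not called, or 10% higher, against 1.72% of all genes. CD14 had 7.09, 6.69 and 7.42 in heat-shocked samples, 2.98, 1.96 and 2.91 in nsEP samples and 1.26, 2.87 and 2.74 in sham samples. The nsEP and sham values lay far below the median probe set at 6.33, so that the size of the rise is uncertain. The heat-shocked values lay near the median of all probe sets in that group, 6.69. Summed signals of the 10 ran from 3216 to 3651 in nsEP, 3078 to 4487 in heat-shocked and 3119 to 4132 in sham samples, and 4 of the 10 lay below the median of all probe sets in heat-shocked samples against 5 in nsEP and 5 in sham samples. Of 6 measured B cell markers 0 were called. Their summed signals ran from 1241 to 1894 in nsEP, 1100.0 to 1534 in heat-shocked and 934 to 1414 in sham samples. The part of these markers in the falls of the replication genes was not tested.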

How the data were processed

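Gene expression was measured in 9 Jurkat samples, 3 per group, on Affymetrix HG-U133 Plus 2.0 arrays. The authors summarised each array with MAS5, which scales arrays to a common trimmed mean, and deposited log2 values of these signals for 54675 probe sets, with no quantile normalization or filter on dim probe sets. The number of arrays limits the precision. Groups were taken from the sample titles.

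The 62 control probe sets were set aside. Of the 54613 others, 41091 had 1 gene symbol in the platform's table, 1801 had several and 11721 had none. A gene stood by its brightest probe set. All 9 arrays entered 1 fit in limma 3.58.1 (R 4.3.3), with a variance trend and two-sided tests, whose p-values were adjusted by Benjamini-Hochberg for the 54613 probe sets. The fitting code was tested on simulated data. Intervals are those of the fit. An exact permutation test of 3 against 3 cannot go below p = 0.1 and was not used. Samples were not treated as paired by replicate number in the main fit.

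The 46 genes, the other lists and the tests were chosen with earlier results of these data known. All 46 genes could be named. Values on every array were given for called genes whose groups did not overlap (where fewer than 4 were called, for the 4 with the smallest p) and for PCNA, CCNE1, CCNE2, E2F1, CDC25A, MCM2, CDC6, CDT1, RRM2 and TYMS. From the other lists up to 4 called genes per direction were named, and the genes beyond this rule were singled out after their values were seen. The study's methods used a t-test, run here as an alternative beside other scalings, filters, variance models, a replicate block and leaving out each array. Promoter sequences came from RefSeq (GRCh38.p14), and a gene was counted when any listed window held the motif.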

Additional observations from a re-analysis of the deposited data

How the results depend on the processing

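With 3 arrays a group, small changes of these genes stay below the threshold, and signal over background limits CCND2 most. In nsEP against sham 0 of the 46 genes were called under all 19 alternatives. In heat shock against sham, where 5 were called, there were 12 with arrays centred on their medians, 10 under spike-in scaling, 8 after quantile normalization, 8 without dim probe sets and 8 with array weights. There was 1 (PCNA) without the variance trend and 0 with the methods' t-test (adjusted p = 0.0848 to 0.127 for the 5). Leaving out 1 array gave 4 to 8, and 8 came without nsEP replicate 3, where TK1 was higher (adjusted p = 0.0391) and GINS3 and SLBP were lower. In nsEP against heat shock, where 5 were called, there were 10 with centred arrays, 3 after quantile normalization, 2 when the fit held just the 6 arrays compared, 6 with array weights (5 higher and 1 lower), 1 (PCNA) without the trend and 1 (FEN1) with the methods' t-test. Leaving out 1 array gave 2 to 8. With centred arrays the calls over all probe sets rose too. They went from 1289 to 3857 lower after heat shock and from 1261 to 3819 higher in nsEP against heat shock. Under spike-in scaling 4122 probe sets were lower after heat shock. The cause of these moves was not tested.

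The median relative to all genes after heat shock was -0.17, and -0.068 without dim probe sets, which also changes the genes it is set against, and -0.15 to -0.24 without 1 array, the lowest without heat shock replicate 1. In nsEP against heat shock it was 0.13, and -0.025 after quantile normalization, 0.035 without dim probe sets and 0.19 with the mean of all probe sets of a gene. Without 1 array it was 0.034 to 0.18, the lowest without nsEP replicate 2. For genes of the brightest quartile, as deposited, the median relative to all genes was -0.19 after heat shock. It was 0.17 for them in nsEP against heat shock. E2F forms were found in 12 genes, in 4 with TTTCGCGC alone and in 7 with only the bases before the start. No pairing by replicate number was seen. Deviations from the group means correlated between -0.07 and 0.05 for equal numbers and between -0.08 and 0.08 for unequal ones. Weak correlations over all probe sets cannot show that no samples were handled together. With a replicate block, 0 genes were called in nsEP against sham, 5 in heat shock against sham and 4 in nsEP against heat shock, where E2F3 did not pass (adjusted p = 0.0522).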
